A study of Mus musculus with 10 samples.

Results

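The endoplasmic reticulum (ER) folding machinery and the unfolded protein response were followed through 32 genes in isolated glomeruli, the filtering units of the kidney. The genes were listed by name as ER chaperones, oxidoreductases, stress sensors, their transcription factors, targets of the integrated stress response, factors of ER-associated degradation (ERAD) and 1 subunit of the translocon. All 32 were measured, out of 18193 genes on the array, with 1 probe set taken per gene, the brightest on average of those annotated to a single gene. Every one of these probe sets had a mean above 6.36, the median of all probe sets on the log2 scale. The RNA came from 10 male mice aged 27 days, 1 array per mouse. Of these, 5 were Wt1 +/R394W, heterozygous for a knock-in of the R394W change of the transcription factor WT1, and 5 were Wt1 +/+ littermates. Both groups were FVB/N mice at backcross generation 4, and the glomeruli of both were collected with magnetic beads perfused through the heart. The mutants, a model of Denys-Drash syndrome, had little albuminuria, and light microscopy found their mesangium free of lesions. Litters beyond this were not given, and p-values weigh a difference against the spread between these mice.

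Secreted and membrane proteins fold in the ER with the help of chaperones that bind unfolded chains, lectins that read their sugars and enzymes that form disulfide bonds. When unfolded proteins build up, the sensors encoded by Ern1, Atf6 and Eif2ak3 signal to the nucleus through the factors XBP1, ATF6 and ATF4, and chaperone and ERAD genes are induced. Podocytes, the epithelial cells of the filter, carry large membrane and matrix proteins through this pathway, and ER stress in them is a known feature of several glomerular diseases. On the arrays, podocyte markers were high throughout. The mean of 11 markers lay between 12.57 and 12.89 on the log2 scale in all mice.

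A group of 3 mice stood apart from the other 7 in this pathway, and they came from both genotypes. They were wild type 3, mutant 2 and mutant 3, and their animal numbers in the labels are consecutive. The run of numbers does not end with them. It goes on without a gap to mutant 4 and wild type 4, which were not part of the group. The ER chaperone gene Hspa5 read 13.86 in mutant 4 and 13.87 in wild type 4. It read 12.97, 13.21 and 13.09 in wild type 3, mutant 2 and mutant 3. Whether the order of numbers has a part in the pattern was not tested. Of the 32 genes, 21 had their lowest 3 values in exactly these mice, against 1.75% of all 18193 genes. The count was 18 after centring each array on its median and 20 after quantile normalization. In 17 of the 21 the gap to the nearest of the other 7 mice was over 0.1 on the log2 scale. In Pdia3, P4hb, Atf4 and Sec61b it was smaller. None of the 32 genes had its highest 3 values in these mice, whereas 5.39% of all genes did. Since the mice were singled out after their values were seen, they are described here mouse by mouse and are not tested as a group.

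Over the whole transcriptome, the same arrays stood apart on the third principal component but not on the larger first and second. On the third, which held 16.1% of the variance, they scored 34.7, 23.9 and 16.8, and the other mice ran from -22.9 to -0.6. On the first (26.6%) they scored 4.8, 9.4 and 19.3, and the other mice ran from -29.7 to 49.2. On the second (19.0%) they scored -9.3, 17.3 and 12.6, and the other mice ran from -29.6 to 34.3. The array closest to wild type 3 was that of mutant 3, and the arrays of mutants 2 and 3 were closest to each other (r = 0.9966 over all probe sets). Mutant 3 was also the array closest to mutant 5, the lowest mouse on the third component. Some markers of white blood cells were high in the same mice. The mean of 13 leukocyte markers was 7.33, 7.16 and 7.04 in wild type 3, mutant 2 and mutant 3, and 6.65 to 6.998 in the others. It ran from 6.81 to 7.33 over all wild types and from 6.65 to 7.16 over all mutants. The lysozyme gene Lyz2 read 9.89, 9.40 and 9.15 in these mice, and 7.58 to 8.72 elsewhere. Ptprc, the common leukocyte antigen, read 9.08, 8.29 and 8.16, and 6.69 to 7.82 elsewhere. With Cd68, these were the 3 of 13 markers whose highest 3 values fell in these mice. The other 10 did not do so. Csf1r, the receptor of macrophages, was highest in wild types 2 and 5 with 9.98 and 9.57, and Jchain, of plasma cells, was lowest in wild type 3 with 3.97. Of the 13, 2 were called lower in mutants, Csf1r and Sdc1. The part of leukocytes in the ER pattern was not tested. In bulk RNA, fewer cells of a type and less RNA per cell cannot be told apart.

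Promoters of the genes share known control elements. The ER stress response element (ERSE, read by ATF6 and XBP1 together with the factor NF-Y) was searched as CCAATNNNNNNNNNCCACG on both strands of the RefSeq promoters of build GRCm38.p6, from 250 bases before to 50 bases after each start. It was present in 8 of the 28 genes with a promoter in that table, or 28.6%, and in 0.137% of all 27025 genes. Many of these genes are known as ER stress targets because of this element, so the share describes the list and is no separate evidence. The 8 windows are shown as the control element these genes share. Of the 8 genes, 7 were lowest in the 3 mice, Canx being the exception, and so were 13 of the 20 genes with a promoter and no ERSE. Each runs 5′ to 3′ along the gene's strand, with the element in capitals and 20 bases on either side.
Hspa5 (chr2:34772005-34772063, plus strand): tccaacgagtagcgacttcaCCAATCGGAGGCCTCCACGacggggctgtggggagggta
Hsp90b1 (chr10:86705618-86705676, minus strand): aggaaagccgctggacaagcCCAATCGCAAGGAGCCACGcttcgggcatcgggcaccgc
Calr (chr8:84847055-84847113, minus strand): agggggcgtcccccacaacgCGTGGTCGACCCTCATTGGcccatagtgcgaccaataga
Canx (chr11:50325780-50325838, minus strand): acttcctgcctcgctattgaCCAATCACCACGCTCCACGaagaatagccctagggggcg
Dnajc3 (chr14:118937807-118937865, plus strand): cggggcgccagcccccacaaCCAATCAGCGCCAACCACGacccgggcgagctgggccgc
Creld2 (chr15:88819500-88819558, plus strand): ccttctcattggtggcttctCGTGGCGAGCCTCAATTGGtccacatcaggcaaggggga
Pdia6 (chr12:17266471-17266529, plus strand): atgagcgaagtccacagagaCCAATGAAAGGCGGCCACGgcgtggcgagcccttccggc
Syvn1 (chr19:6046512-6046570, plus strand): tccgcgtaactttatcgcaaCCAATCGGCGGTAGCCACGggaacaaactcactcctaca
In Calr and Creld2 the element lies on the opposite strand, and Hsp90b1 holds a further copy on the opposite strand, 89 to 107 bases before its start. In Hspa5 the element lies 47 to 65 bases before the start.

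A shorter form, ERSE-II (ATTGGNCCACG), was present in Herpud1 and Dnajb11, or 7.14% of the 28 genes against 0.0444% of all genes. Both genes were lowest in the 3 mice, as were 21 of the 32 genes of the list. The UPRE (TGACGTGG, an XBP1 element) was found in none of the 28 and in 0.714% of all genes. The C/EBP-ATF element of ATF4 targets (TGATGNAA) was found in Trib3, Chac1, Asns and Herpud1, which is 14.3% of the 28 genes against 4.51% of all. Of these, Herpud1 was lowest in the 3 mice, and Trib3, Chac1 and Asns were not. The Herpud1 promoter is shown with its ERSE-II in capitals, beside the C/EBP-ATF elements of Chac1 and Asns. Herpud1 also holds the same C/EBP-ATF letters as Chac1, 105 to 112 bases before its start and outside the window shown. As with the ERSE, the shares of these elements describe the list and are no separate evidence. Whether any of these elements has a part in the mouse pattern was not tested.
Herpud1 (chr8:94386357-94386407, plus strand): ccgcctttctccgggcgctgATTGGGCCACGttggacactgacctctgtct
Chac1 (chr2:119351029-119351076, plus strand): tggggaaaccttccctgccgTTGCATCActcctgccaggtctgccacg
Asns (chr6:7693210-7693252, minus strand): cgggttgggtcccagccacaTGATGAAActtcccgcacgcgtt
The element of Chac1 is on the opposite strand. Outside the list, 12 measured genes hold an ERSE, and 2 of them, Alg12 and Ero1b (Ero1lb), were lowest in the same mice. Alg12, a mannosyltransferase of N-glycan synthesis, neighbours Creld2 on chromosome 15. No entry of the promoter table matched Hyou1, Manf, Atf6 or Derl1. A match of letters is a description and not a measured binding site.

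Among the 11 chaperones and cofactors, 9 were lowest in wild type 3, mutant 2 and mutant 3, and none was called different between genotypes in limma (0 of 11, adjusted p from 0.734 to 0.996). Hspa5, the central ER chaperone BiP, read 13.96, 13.78, 12.97, 13.87 and 13.79 in wild types 1 to 5 (chromosome 2, 1416064_a_at). In mutants 1 to 5 it read 13.72, 13.21, 13.09, 13.86 and 13.86. The 7 other mice lay within 13.72 to 13.96, and the span over all mice was 1.98-fold. Manf, a small secreted ER factor that binds BiP, had a wider span of 3.26-fold. Its wild types read 12.63, 12.20, 10.93, 12.56 and 12.33, and its mutants 12.34, 11.37, 11.36, 12.29 and 12.53 (chromosome 9, 1428112_at). No mouse lay between 11.37 and 12.20.

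Creld2, an ER protein with disulfide isomerase activity, read 11.30, 10.75, 9.38, 10.89 and 10.59 in wild types 1 to 5 (chromosome 15, 1452754_at). The mutants read 10.51, 9.57, 9.71, 10.77 and 11.10, a span of 3.76-fold over all mice. Sdf2l1, a partner of the BiP cofactor Dnajb11, had the widest span of the 32 genes, 3.79-fold (chromosome 16, 1418206_at). Its wild types read 9.72, 9.23, 7.80, 9.001 and 8.65, and its mutants 8.83, 8.07, 7.93, 8.83 and 9.23. In each of Creld2 and Sdf2l1, wild type 3 was the lowest and wild type 1 the highest of all mice.

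Other chaperones spanned between 1.33-fold and 1.75-fold. Calr, the soluble lectin calreticulin, read 13.61, 13.50, 13.02, 13.49 and 13.47 in wild types and 13.30, 12.98, 13.03, 13.46 and 13.41 in mutants (chromosome 8, 1417606_a_at). Both of its other probe sets placed the same 3 mice lowest. Dnajc3, a BiP cochaperone that also restrains the kinase of Eif2ak3, read 11.40, 11.47, 10.90, 11.20 and 11.19 in wild types and 11.17, 10.91, 10.98, 11.16 and 11.23 in mutants (chromosome 14, 1433887_at). Hsp90b1, the ER form of the HSP90 chaperones, Dnajb9 and Dnajb11, both BiP cofactors, spanned 1.52-fold, 1.61-fold and 1.75-fold with the same mice lowest. The exceptions were Canx, the membrane lectin calnexin, and Hyou1, a nucleotide exchange factor of BiP. Canx spanned 1.33-fold, between 12.25 and 12.66. Hyou1 read 10.65, 10.39, 10.27, 10.32 and 10.29 in wild types and 10.51, 10.32, 9.97, 10.13 and 10.25 in mutants (chromosome 9, 1423291_s_at), so mutant 3 was lowest and mutant 2 lay in the middle.

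**Figure D1:**
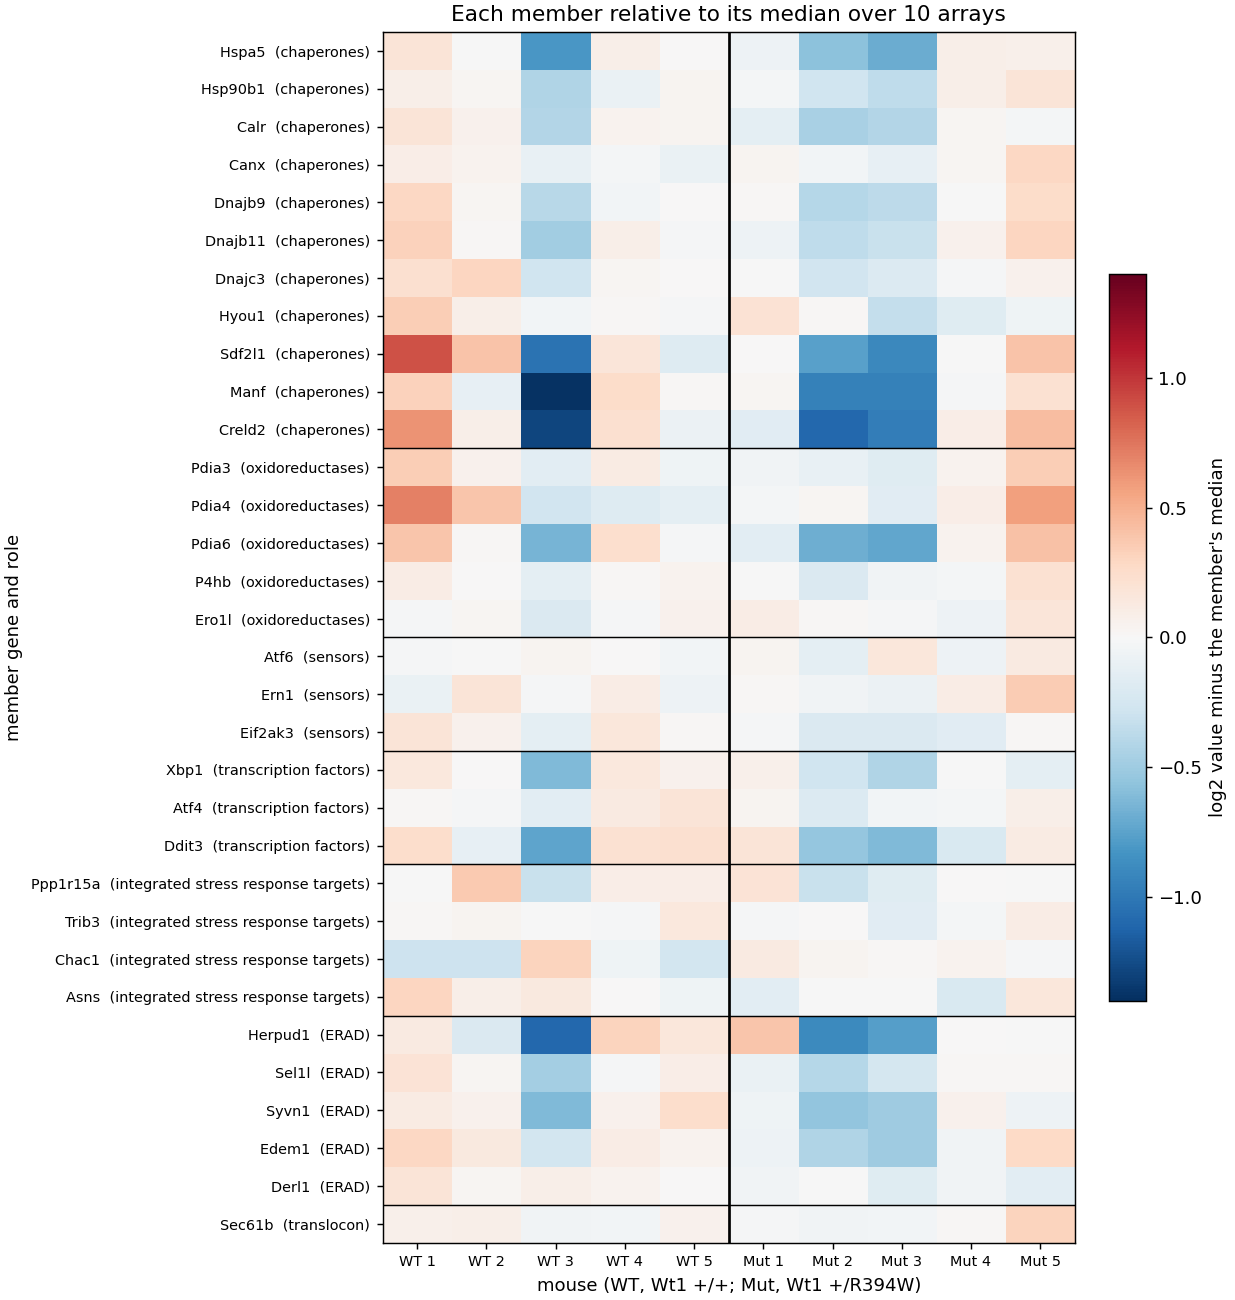
Log2 value of each of the 32 genes (rows, with role) in each of the 10 mice (columns), minus that gene's median over the mice; blue is lower and red higher. The columns of wild type 3 and mutants 2 and 3 are blue in most rows of chaperones, transcription factors and ERAD, with Manf in wild type 3 the darkest at 10.93 against 12.20 or more in the other 4 wild types.

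Of the 5 oxidoreductases, which form and rearrange disulfide bonds, 3 were lowest in the same mice, and none was called different between genotypes (limma, adjusted p from 0.825 to 0.9997). Pdia6, which also tunes the sensor of Ern1, read 12.34, 11.97, 11.31, 12.19 and 11.94 in wild types and 11.81, 11.27, 11.23, 12.00 and 12.37 in mutants (chromosome 12, 1423648_at). Its low mice were at least 0.50 below the others. P4hb, the founding protein disulfide isomerase, read 12.82, 12.73, 12.58, 12.74 and 12.77 in wild types and 12.71, 12.51, 12.67, 12.69 and 12.94 in mutants (chromosome 11, 1437465_a_at), where mutant 3 was nearly level with mutant 4. Pdia3, the partner of calnexin and calreticulin, spanned 1.43-fold. Pdia4 spanned 1.96-fold and showed another order, with wild type 1 at 10.03 and mutant 5 at 9.90 above all others and wild types 3, 4 and 5 at 9.06, 9.14 and 9.20. Ero1l (Ero1a in the annotation), the oxidase that recharges the isomerases, read 10.03, 10.08, 9.85, 10.04 and 10.11 in wild types and 10.16, 10.07, 10.04, 9.98 and 10.22 in mutants (chromosome 14, 1449324_at). Wild type 3 was the lowest there and mutant 4 came next.

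None of the 3 sensors had its lowest 3 values in the 3 mice, and the 3 transcription factors did, but Eif2ak3 and Atf4 lay near the line. Ern1, the kinase and RNase that splices Xbp1 mRNA, lay between 8.94 and 9.40. Atf6, a membrane-bound factor released by cleavage, lay between 9.23 and 9.52. Eif2ak3, the kinase PERK that slows translation, read 10.05, 9.94, 9.73, 10.03 and 9.89 in wild types and 9.85, 9.67, 9.67, 9.71 and 9.89 in mutants (chromosome 6, 1449278_at). It was low in the 3 mice, but mutant 4 lay below wild type 3. Xbp1 read 12.96, 12.82, 12.19, 12.96 and 12.88 in wild types and 12.88, 12.54, 12.40, 12.81 and 12.68 in mutants (chromosome 11, 1437223_s_at). The array does not separate its spliced and unspliced mRNA. Ddit3, the factor CHOP of prolonged ER stress, read 9.11 in wild type 3, 9.31 in mutant 2 and 9.23 in mutant 3, and 9.64 to 10.09 in the other mice. Atf4, which acts largely through translation of its mRNA, spanned 1.29-fold, with mutant 3 only 0.0050 below the next mouse. Its probe set 1438992_x_at did not show the pattern. There wild type 4 was lowest with 10.24, and mutant 2 with 10.44 lay above mutant 4 with 10.37.

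**Figure D2:**
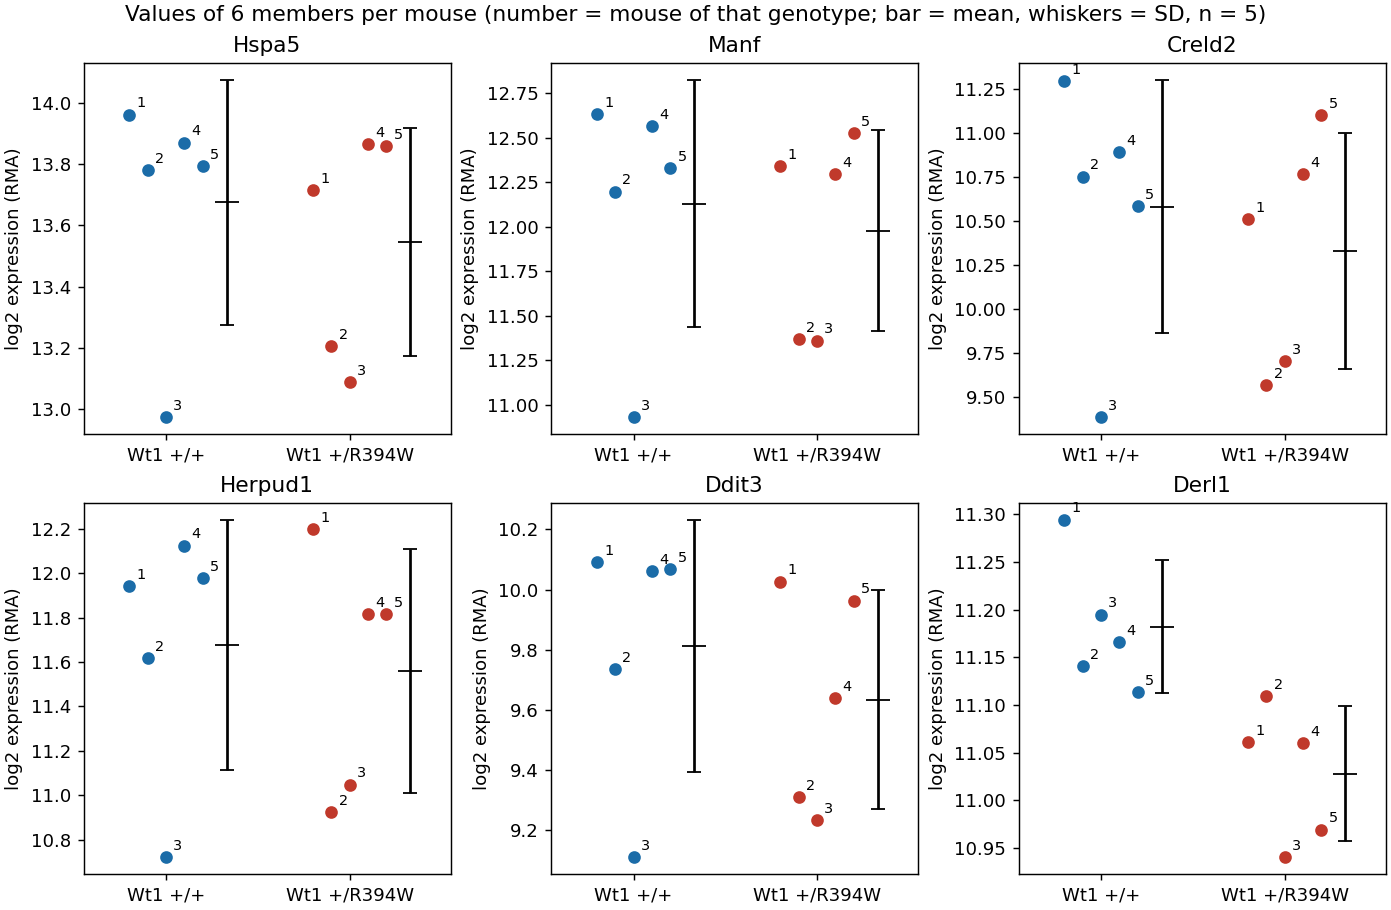
Log2 expression of 6 genes in each mouse, by genotype, with the mouse's number beside each point and the mean with SD (n = 5) beside each group; each panel has its own axis. In Hspa5, Manf, Creld2, Herpud1 and Ddit3 wild type 3 and mutants 2 and 3 form the lower cluster, whereas Derl1 is ordered by genotype within a range of 10.94 to 11.29.

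Targets of the integrated stress response mostly went their own way. Ppp1r15a, which restarts translation by directing a phosphatase to eIF2, was lowest in the 3 mice, with 8.98, 8.99 and 9.12 against 9.29 to 9.67. Chac1, a glutathione-degrading enzyme, read 6.90, 6.90, 7.50, 7.13 and 6.93 in wild types. Its mutants read 7.32, 7.22, 7.20, 7.24 and 7.17 (chromosome 2, 1451382_at), and wild type 3 was the highest mouse. Asns, the asparagine synthetase, read 7.89, 7.68, 7.73, 7.60 and 7.53 in wild types and 7.45, 7.59, 7.59, 7.39 and 7.75 in mutants (chromosome 6, 1451095_at). Trib3, a pseudokinase that inhibits ATF4 signalling, spanned 1.23-fold. Trib3, Chac1 and Asns were the 3 genes with a mean below 8, the lowest signals of the list.

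ERAD factors, which extract misfolded proteins and mark them for the proteasome, followed the pattern in 4 of 5 genes. Herpud1, an ERAD scaffold, read 11.94, 11.62, 10.72, 12.13 and 11.98 in wild types and 12.20, 10.92, 11.05, 11.82 and 11.82 in mutants (chromosome 8, 1448185_at). The span was 2.79-fold. Syvn1, the ubiquitin ligase HRD1, read 9.82, 9.77, 9.10, 9.77 and 9.96 in wild types and 9.66, 9.16, 9.21, 9.77 and 9.64 in mutants (chromosome 19, 1443609_s_at). Edem1, a lectin that delivers misfolded glycoproteins, read 10.52, 10.36, 9.96, 10.33 and 10.28 in wild types and 10.15, 9.80, 9.73, 10.17 and 10.50 in mutants (chromosome 6, 1451218_at). Sel1l, the partner of Syvn1, spanned 1.59-fold with the same mice lowest. Derl1, a channel-like membrane protein, was the exception and is described with the genotypes. The translocon subunit Sec61b read 11.60, 11.62, 11.48, 11.50 and 11.59 in wild types and 11.52, 11.48, 11.49, 11.54 and 11.84 in mutants (chromosome 4, 1417083_at). Its lowest 3 mice were separated from wild type 4 by 0.0034, and its most distinct mouse was mutant 5, the highest.

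Other probe sets of the same genes showed the pattern in part. The 32 genes have 44 further single-gene probe sets, 33 of them with a mean above 6.36. Of the 22 that belong to the 21 genes with the pattern, 11 placed the same 3 mice lowest. Among them were 1427464_s_at of Hspa5, 1435626_a_at of Herpud1, 1428070_at of Syvn1, 1424065_at of Edem1, and 1420011_s_at and 1420886_a_at of Xbp1. Of the 11 that belong to genes without it, none did. Manf, Creld2, Sdf2l1, Dnajb9 and Dnajb11 each have 1 probe set, so their wide spans rest on it alone.

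Over all 10 mice, the spread between mice of one genotype was wide for these genes. The median within-genotype SD was 0.22 over the 32 genes and 0.13 over all genes. Without wild type 3 and mutants 2 and 3 it was 0.12 over the 32 genes and 0.13 over all genes. As these mice were picked for low values in the same genes, a smaller spread without them follows from the choice. Of the 32, 23 lay above the median of all genes and 11 lay among the 10% of genes with the largest SD, a boundary of 0.27. The highest were Creld2 with 0.69, Sdf2l1 with 0.64 and Manf with 0.63, and the smallest were those of Derl1 with 0.070 and Trib3 with 0.080. At the upper end, wild type 1 was the highest mouse in 15 of the 32 genes and mutant 5 in 8. Wild type 3 was the lowest in 16, mutant 3 in 8 and mutant 2 in 5.

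**Figure D3:**
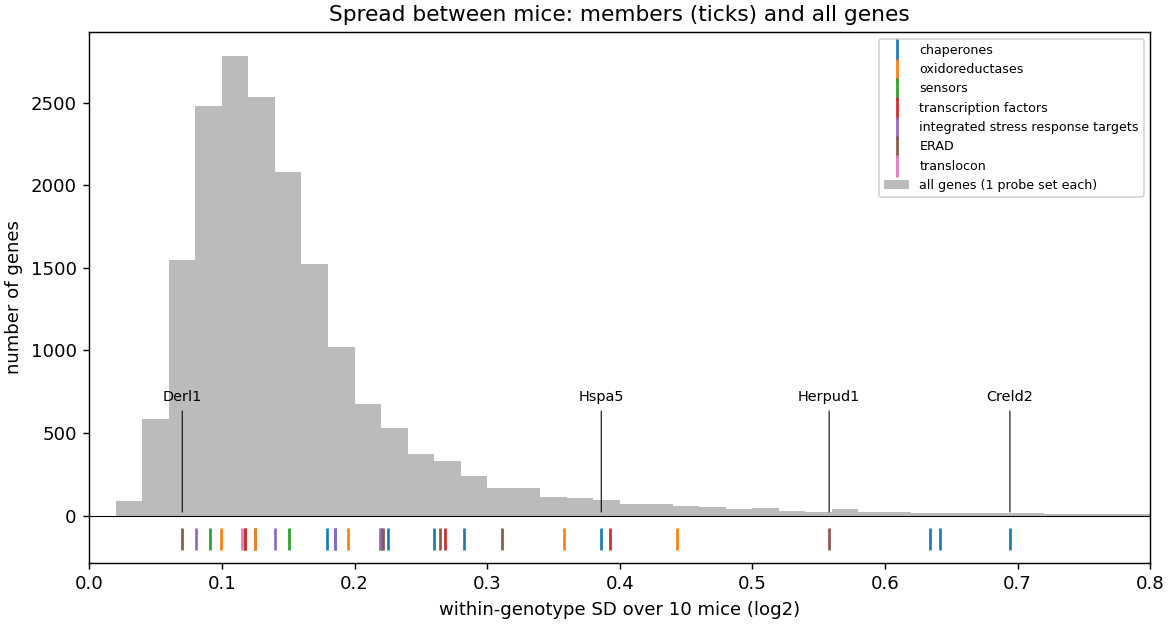
Number of genes (vertical axis) by within-genotype SD over 10 mice on the log2 scale (horizontal axis), with a tick below the axis for each of the 32 genes, coloured by role. Chaperone and ERAD ticks reach far to the right, up to Creld2 at 0.69, while the sensors stay between 0.091 and 0.15, near the bulk of genes.

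No gene of the list was called different between Wt1 +/R394W and Wt1 +/+ glomeruli. In limma with Benjamini-Hochberg adjustment over all 45037 probe sets, 0 of 32 had an adjusted p under 0.05, where 0.853% of all probe sets and 1.26% of all genes did. None was called lower in mutants, as 0.698% of all genes were, and none higher, as 0.566% were. An unadjusted p under 0.05 was found for 1 of 32, and for 11.0% of all genes. The changes ran from -0.30 (Sdf2l1) to 0.16 (Chac1) on the log2 scale, with SE from 0.059 to 0.37 and adjusted p from 0.414 to 0.9997. Among them 26 were negative, or 81.2% against 48.3% of all genes, and the median was -0.11 against 0.00 for all genes. The low mice were 1 of 5 wild types and 2 of 5 mutants. Without these 3 mice none of the 32 passed either (lowest adjusted p = 0.410, limma, 4 against 3 mice), where 0.539% of all genes did. Then 20 of 32 changes were negative, against 49% of all genes. As the mice were picked for low values in these same genes, and 2 of them are mutants, a shift towards 0 follows from the choice and shows nothing about its cause.

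Derl1 had the smallest p. It read 11.29, 11.14, 11.19, 11.17 and 11.11 in wild types and 11.06, 11.11, 10.94, 11.06 and 10.97 in mutants (chromosome 15, 1437723_s_at). The genotypes met at 11.11 without overlapping, as in 3.67% of all genes, and the change of -0.15 ± 0.06 (SE, n = 5 per genotype) had an adjusted p of 0.414 in limma. Of its 3 other probe sets, 1433563_s_at changed by -0.21 (adjusted p = 0.270), 1415693_at by -0.01 (0.989) and 1423082_at by 0.02 (0.978). 1437723_s_at and 1433563_s_at have the suffix _s, given to designs shared by more than 1 transcript. Next in p were Eif2ak3, with 9.93 ± 0.13 (SD, n = 5) in wild types and 9.76 ± 0.11 (SD, n = 5) in mutants (adjusted p = 0.535), and Asns, with a change of -0.13 ± 0.09 (SE, adjusted p = 0.708).

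For the genes with wide spread the intervals stayed wide. The change of Hspa5 was -0.13 with a 95% interval from -0.59 to 0.33, and that of Manf -0.15 with an interval from -0.90 to 0.60. Creld2 changed by -0.25, with an interval from -1.07 to 0.57. Herpud1 changed by -0.12, with an interval from -0.78 to 0.54. For the sensors, the bounds were closer, from -0.12 to 0.17 for Atf6 and from -0.16 to 0.25 for Ern1. In Chac1 wild type 3 was the highest mouse. The change was 0.16 ± 0.11 (SE, adjusted p = 0.721) over all mice and 0.27 (adjusted p = 0.166, limma) without wild type 3.

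**Figure D4:**
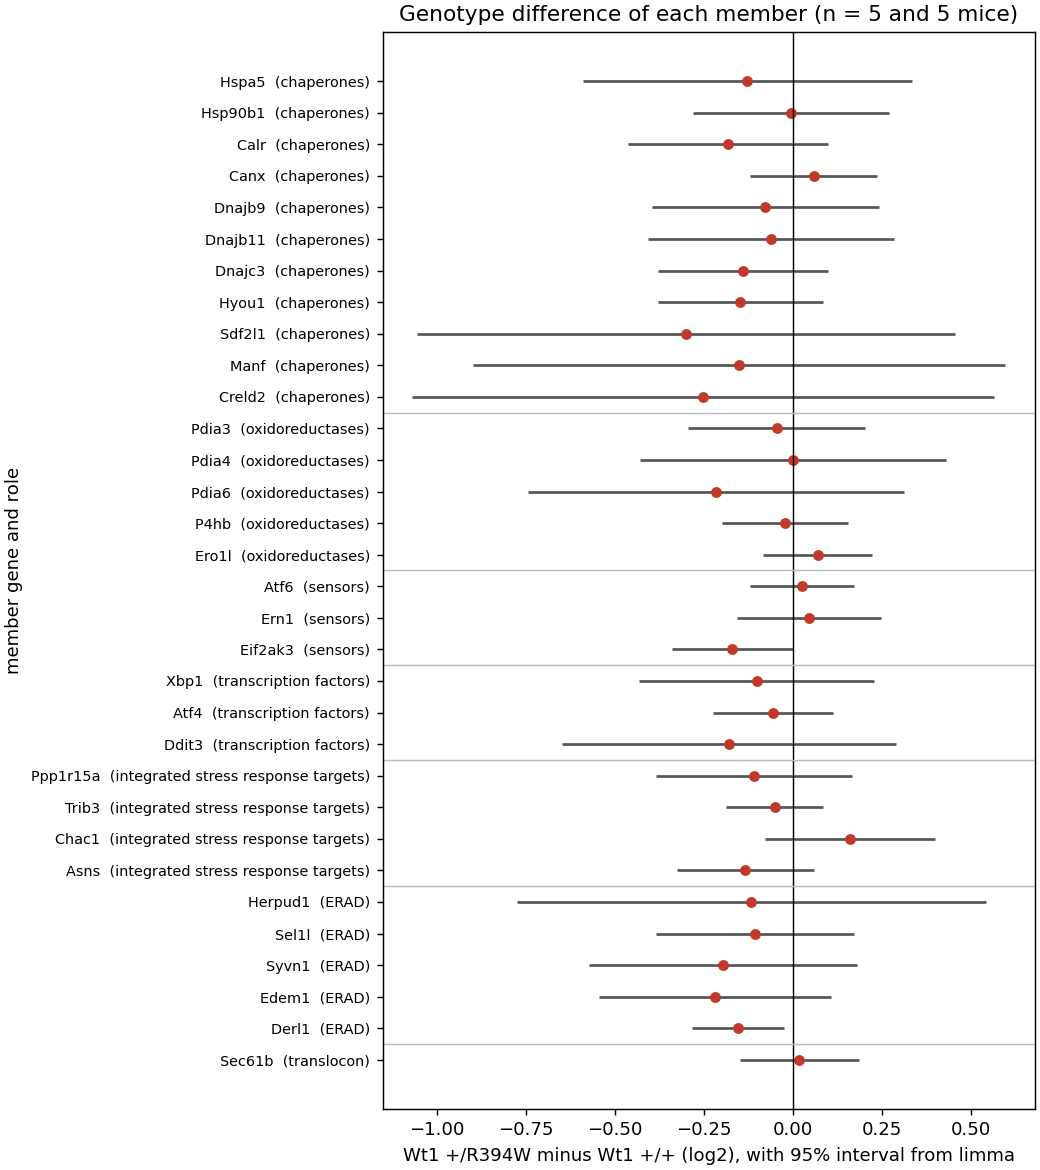
Mutant minus wild-type difference of each of the 32 genes on the log2 scale (points) with the 95% interval from limma (lines), n = 5 mice per genotype, grouped by role. All intervals but that of Derl1 reach 0, and those of Sdf2l1, Manf and Creld2 are the widest, from -1.07 at the lowest bound to 0.60 at the highest.

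Other genes of the ER pathway showed less of the mouse pattern. Among 127 further ER genes, 12 were lowest in the 3 mice, which is 9.45% of them against 1.75% of all genes. They included the collagen chaperone Serpinh1, with 12.30, 12.66 and 12.69 in wild type 3, mutant 2 and mutant 3, and 12.88 to 13.23 elsewhere. The disulfide oxidase Ero1lb read 8.31, 8.50 and 8.56, and 8.71 to 9.30 elsewhere. By group, the count was 6 of 39 for other folding and glycoprotein control genes, 2 of 21 for other ERAD genes and 4 of 28 for translocation and signal peptidase genes. It was 0 of 16 for other signalling genes and 0 of 23 for other targets of the integrated stress response. None of the 127 was called between genotypes (limma; 11 had an unadjusted p under 0.05). The smallest adjusted p was 0.0649, for Nupr1, a stress-induced nuclear protein gene, with 13.12 ± 0.14 (SD, n = 5) in wild types and 12.77 ± 0.08 (SD, n = 5) in mutants. Its change of -0.35 ± 0.08 (SE) passed in limma without wild type 3 (adjusted p = 0.0252) and after quantile normalization (0.0421). Creb3l2, an ER-bound factor (-0.34 ± 0.09 SE, adjusted p = 0.174), Qsox1, a sulfhydryl oxidase (0.28 ± 0.08 SE, 0.229), and Tmx4, a membrane thioredoxin (0.22 ± 0.07 SE, 0.255), came next.

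Of 13 cytosolic and mitochondrial chaperone genes, 7 had their lowest 3 values in the same mice and 6 did not, and none was called between genotypes (limma, lowest adjusted p = 0.625, none with an unadjusted p under 0.05). The inducible HSP70 genes Hspa1a and Hspa1b spanned most, 36.2-fold and 14.9-fold, and were among the 6. Hspa1a read 7.52 in wild type 3 and 8.59 in mutant 3, the lowest values, but its 10.34 in mutant 2 lay above mutants 4 and 5 with 9.94 and 9.51. Hspa1b was lowest in wild type 3 and mutant 3 as well, with 12.22 in mutant 2 above the 11.88 of mutant 5. Dnajb1, an HSP70 cofactor, was among the highest in mutant 2, at 11.89. Hsph1, an HSP110 chaperone, spanned 5.91-fold, with 9.48 in wild type 3, 10.58 in mutant 2 and 9.90 in mutant 3, and 10.87 to 12.05 elsewhere. Hspb1, the small heat shock protein of the actin skeleton, read 12.02, 12.19 and 12.03, and 13.09 to 13.74 elsewhere. The mitochondrial pair Hspd1 and Hspe1 spanned 1.62-fold and 1.88-fold with the same mice lowest. Of the 11 podocyte and 12 endothelial markers, none had its lowest 3 values in these mice. The share over all genes was 1.75%, so finding none in lists this short says little about either cell type.

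**Figure D5:**
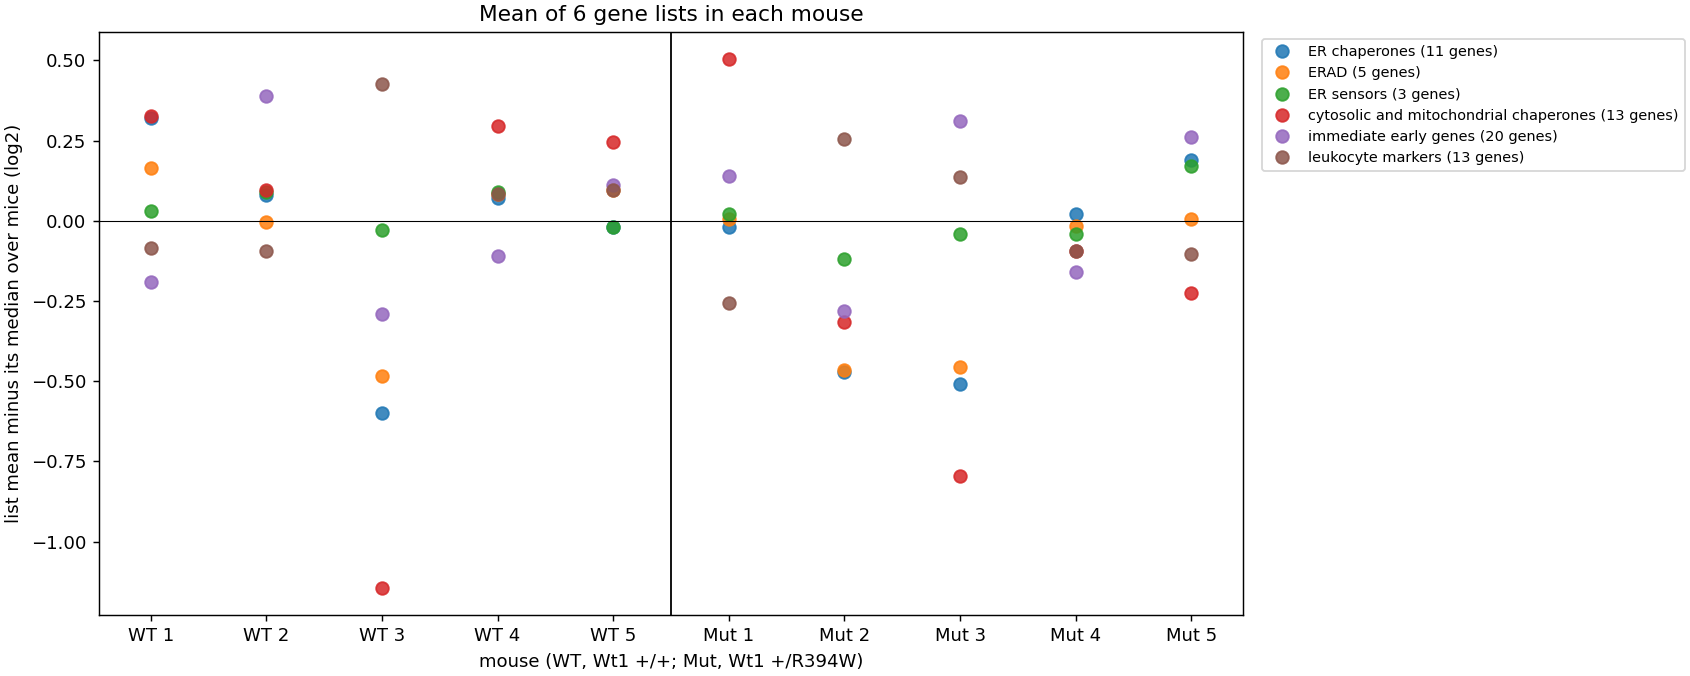
Mean log2 value of 6 gene lists in each mouse, minus the median of that list mean over the mice, wild types left and mutants right of the line. In wild type 3 and mutants 2 and 3 the ER chaperone, ERAD and cytosolic chaperone means lie below their values in all other mice, the leukocyte mean is at 7.04 or more, and the immediate early genes lie low in wild type 3 and mutant 2 and high in mutant 3.

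No association with tubule carry-over was called for these genes. The mean of 23 proximal tubule markers ran from 6.63 (wild type 5) to 10.57 (mutant 4), and was 8.83, 9.13 and 8.47 in wild type 3, mutant 2 and mutant 3. In limma with genotype as a term, 0 of 32 genes were associated with it, where 1.74% of all genes were, and none had an unadjusted p under 0.05. Slopes ran from -0.06 to 0.04 per log2 unit of the marker mean. The steepest belonged to Sec61b (-0.06 ± 0.03 SE, adjusted p = 0.620), Ero1l, P4hb and Chac1. Immediate early genes, which respond within minutes to handling of tissue, gave no call either. The mean of 20 such genes was 8.81 in wild type 3 and 8.82 in mutant 2, the lowest values, and 9.41 in mutant 3, below only wild type 2 with 9.49. In limma 0 of 32 genes were associated with it, against 0.00550% of all genes, and 1 had an unadjusted p under 0.05, where 6.70% of all genes did. That gene was Ppp1r15a, with a slope of 0.55 ± 0.21 (SE, adjusted p = 0.904). Creld2 (0.73 ± 0.78 SE), Manf (0.65 ± 0.71 SE), Sdf2l1 (0.63 ± 0.73 SE) and Herpud1 (0.56 ± 0.63 SE) had the steepest slopes, each within its error of 0.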

How the data were processed

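Total RNA of 10 mice was hybridised to 1 array each. The deposited values are on the log2 scale and are named RMA in the submitters' processing notes, with version and settings not given in the sources used here. All 10 columns were assigned by the labels, 0 belonged to other samples. Mouse numbers are in order of accession and pair nothing. Nothing says more of litters than that the mice were littermates. The number of arrays limits the precision.

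Of 45101 probe sets, 64 controls were left out. Platform annotation named 1 gene for 34945, several for 932 and none for 9160. Of the 32 names, Ero1l was matched through its current symbol. The genotype comparison used limma 3.58.1 under R 4.3.3, with two-sided p adjusted over 45037 probe sets by Benjamini-Hochberg and a threshold of 0.05. The same fit with genotype plus a centred marker mean gave the slopes. On simulated data with 200 changed of 45037 probe sets, the genotype fit recovered 52.0% of changes of 0.5, 92.5% of 1 and 99.5% of 2. The tubule slope of 0.5 was recovered in 94.0%, and the early gene slope in 0% for 0.5 and 42.5% for 1. The changed probe sets were drawn from all probe sets, with noise independent between them. The 32 genes spread more, with a median SD of 0.22 against 0.13 over all genes. These rates therefore do not give the recovery for the list, least of all for Creld2, Sdf2l1 and Manf. Figures were drawn with matplotlib (version 3.10.9).

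Printed in every mouse are the 8 genes with the smallest p, the 5 with the largest SD, the 4 with the steepest slope on each score and those with a mouse past Dixon's critical value. Other values were picked after they were seen. Gene names, lists and tests were chosen with earlier results of these data known. The count of genes lowest in 3 mice, and the fit without them, were added after seeing the values. Promoters are those of RefSeq (GRCm38.p6, 28 of 32 matched). Protein sequences were not used here.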

Additional observations from a re-analysis of the deposited data

Results flagged for a closer look

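Within each genotype, a mouse far from the other 4 was sought for each of the 32 genes with Dixon's gap test at the 95% level. It marked 6 of 64 groups. The level of the test is about 1 in 20, but the groups hold the same mice and are not independent, so the count cannot be set against it. Wild type 3 was the lowest wild type in 5 of the 6 marked groups. It read 12.97 in Hspa5 (others 13.78 to 13.96), 13.02 in Calr (others 13.47 to 13.61) and 10.93 in Manf (others 12.20 to 12.63). It also read 12.19 in Xbp1 (others 12.82 to 12.96) and 9.10 in Syvn1 (others 9.77 to 9.96). In the sixth, mutant 5 was the highest mutant in Sec61b at 11.84 (others 11.48 to 11.54). Since 2 of the 5 mutants were low in many genes, this test has little power to single out either.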

How the results depend on the processing

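None of the 32 genes was called between genotypes under any alternative run, which included other normalizations, a signal filter, other variance models, array weights, both scores as covariates, other probe set choices, a threshold of 0.10 and each mouse left out (count 0 throughout, with 384 probe sets called in all). The lowest adjusted p of any gene was 0.166. Signs of uncalled changes turned in up to 6 genes. Over all probe sets, the count was 216 to 301 with 1 mouse left out (242 without wild type 1, 216 without wild type 4), 110 with wild types 2 to 4 and mutants 1 to 4 only, 151 without wild type 3 and mutants 2 and 3 (chosen after seeing the data) and 580 at a threshold of 0.10. Apart from the looser threshold, the cause of these differences was not tested. The smaller number of mice cannot be told apart from which mice were left out. Of the 127 other ER genes, 0 were called, 1 with array weights, a mean-variance trend, the signal filter, quantile normalization or the threshold of 0.10, and 0 to 1 with 1 mouse left out. In each case that gene was Nupr1. Neither score called any of the 32 genes under its alternatives (0 with each mouse left out). The count of genes lowest in the same 3 mice was 21, and 18, 20, 19 and 16 (of 27 genes) with median centring, quantile normalization, gene means and probe sets without shared suffixes. No paired analysis was possible because mouse numbers are not shared between genotypes in the labels.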
